A study of Cricetulus griseus with 19 samples.

Results

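Icam1, intercellular adhesion molecule 1, was followed as a single gene through 19 RNA libraries of Chinese hamster cells with an engineered circuit that limits their own number. It was chosen because earlier results of these data showed it higher under both feedback conditions than in cultures that grew without control, so its levels against those cultures are given as a description with no test. Of 46718 transcript targets in the files, 1 carries the RefSeq accession of hamster Icam1, a coding transcript of 2781 nt. Its estimated count was a whole number in every library, which gave no sign that the quantifier split reads between it and another target. Reads that fit more than 1 target but were assigned wholly to 1 would not show in this way. No sequence of the gene is shown, and its place in the genome was not analysed here.

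The cells are Paradaux, made from CHO-K1, an adherent cell line that was derived from the ovary of a Chinese hamster. The compared groups were 7 cultures under paradoxical feedback, 7 under negative feedback, 4 of uncontrolled growth and 1 library labelled parental. The series title places the sampling after long-term culture, and the labels name no agent, dose or passage number. A target for the inserted construct had 1227 to 2222 CPM, counts scaled to a common library size, in the 19 libraries, so every group, the parental one included, carried it. Polyadenylated RNA was taken after 2 days of growth below 80% confluence. The labels do not say whether the cultures began from 1 clone or were kept apart throughout, so the spread between them may be partly technical. Of 24 markers of leukocytes, endothelium and ovarian epithelial or mesenchymal cells that were looked for, 0 could be matched to a target, so the labelled cell type could not be checked by markers. In bulk RNA, more cells with the transcript and more transcript per cell cannot be told apart.

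Icam1 is a membrane glycoprotein of the immunoglobulin superfamily. In human and mouse tissues it is the endothelial ligand of the leukocyte integrins LFA-1 and Mac-1, and it anchors white blood cells before they cross the vessel wall. Its transcription is classically raised by NF-kB after inflammatory cytokines and by STAT factors after interferon gamma. Its short cytoplasmic tail is tied to actin through ezrin, radixin, moesin and alpha-actinin, and membrane proteases can release its outer part.

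Icam1 was a well expressed gene in every library. It was counted 923 to 8436 times, for which counting error alone is 1.09 to 3.29% of the value. Its level per transcript length, in the deposited unit TPM, which scales counts by transcript length and to a common total, ran from 35.5 to 292 TPM, above 92.5 to 98.9% of all targets. The highest library exceeded the lowest by 8.31-fold in CPM and by 8.23-fold in TPM. The libraries held 9.91 to 13.2 M estimated counts each.

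Some libraries stood apart as wholes, which bears on each result below. On the first principal component of all tested targets, which held 33.2% of the variance, negative feedback cultures 3 to 7 lay at 158 to 221, while cultures 1 and 2 lay at -161 and -141. The paradoxical feedback cultures lay at -79.7 to 38, the uncontrolled cultures at -169 to -122 and the parental library at -84.2. Counts on targets under 800 nt took 6.12 to 7.22% in negative feedback cultures 3 to 7 and 13.3 to 14.1% in cultures 1 and 2. That share was 8.50 to 12.4% under paradoxical feedback and 12.2 to 13.4% in uncontrolled cultures.

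Under paradoxical feedback Icam1 lay above every uncontrolled culture. Its lowest, median and highest levels were 203.8, 413.8 and 681.6 CPM in the 7 paradoxical feedback cultures, against 82.0, 87.5, 119.7 and 172.4 CPM in the 4 uncontrolled cultures. The groups did not overlap, and the number of all tested targets that separate in this way was not counted. The means were 394 ± 154 CPM (SD, n = 7) and 115 ± 41.5 CPM (SD, n = 4), with a fitted log2 fold change of 1.77 ± 0.38 (SE), or 3.41-fold. Over all tested targets, edgeR called 4.93% higher in this comparison at an adjusted p under 0.05. For Icam1 nothing is read from that share, since the gene was chosen on this contrast.

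The paradoxical feedback cultures differed widely among themselves. Culture 1 was the highest of all 19 libraries at 681.6 CPM. Cultures 5, 6 and 7 were close together at 421.6, 413.8 and 418.1 CPM, and culture 3 had 367.2 CPM. Cultures 4 and 2 were the lowest, at 251.0 and 203.8 CPM. The standard deviation of the log2 level was 0.57 in this group, against a median of 0.32 for 534 targets of like level, which placed Icam1 at percentile 90.3. Among the uncontrolled cultures it stood at percentile 94.4, with a standard deviation of 0.49 against a median of 0.16, and among the negative feedback cultures at percentile 81.3, with 0.68 against 0.35.

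Under negative feedback the level was split between cultures in the way the libraries were. Cultures 3, 4, 5, 6 and 7 had 504.4, 358.6, 297.7, 316.3 and 324.5 CPM. Cultures 1 and 2 had 132.8 and 159.8 CPM, which is inside the range of the uncontrolled cultures (82.0 to 172.4 CPM). Over all 7, the mean was 299 ± 125 CPM (SD, n = 7), against 115 ± 41.5 CPM in the uncontrolled cultures (SD, n = 4), and the fitted log2 fold change was 1.37 ± 0.37 (SE), or 2.59-fold. Of the 28 pairs of a negative feedback and an uncontrolled culture, the negative feedback culture was higher in 26. Leaving out cultures 3 to 7 gave a log2 fold change of 0.35, and leaving out cultures 1 and 2 gave 1.63. Over all tested targets, 8.65% were called higher in this comparison, a share from which again nothing is read for Icam1.

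**Figure D1:**
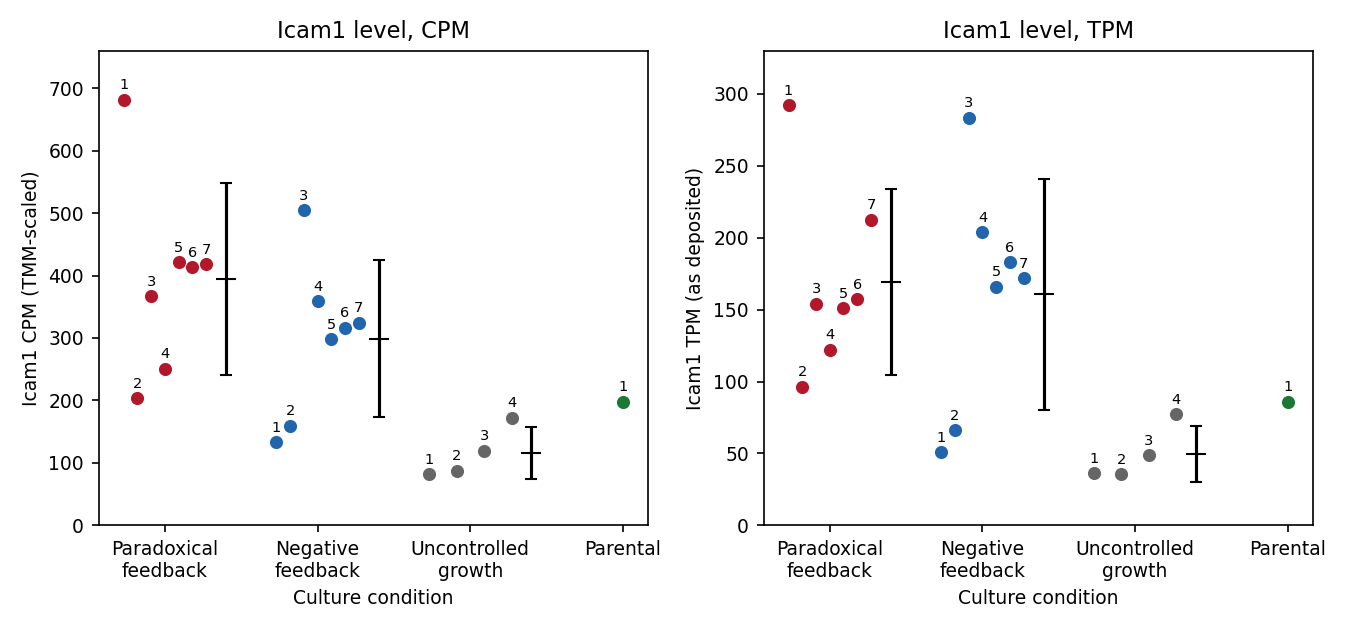
Icam1 level in each library in CPM (left) and TPM (right) by culture condition, with 1 numbered point per culture and the bar at the right of each group giving the mean ± SD. The 7 paradoxical feedback cultures all lie above the 4 uncontrolled cultures, and negative feedback cultures 1 and 2 lie within the uncontrolled range, at 132.8 and 159.8 CPM.

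The parental library had 198.1 CPM, with an exact Poisson interval of 190.2 to 206.3 CPM at 95% that covers counting error only. In CPM it lay below all 7 paradoxical feedback cultures, below negative feedback cultures 3 to 7 and above all 4 uncontrolled cultures, at place 13 of 19 from the top. Paradoxical feedback culture 2, at 203.8 CPM, was inside that interval, so the 2 libraries are not set apart. With library size alone as the scaling the parental library was the higher, at 204.6 against 201.9 CPM, while in TPM it was the lower, at 85.9 against 96.4. With 1 parental library there is no test. By group mean the order was thus paradoxical feedback, negative feedback, parental and uncontrolled growth. The first neighbours in that order overlapped, as did negative feedback and uncontrolled growth.

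The comparison of the feedback conditions with each other was not itself used to choose the gene, and it did not pass. The levels in both conditions did enter the choice, so the comparison is not fully independent of it. The median was 413.8 CPM under paradoxical feedback and 316.3 CPM under negative feedback, and the paradoxical culture was higher in 35 of 49 pairs. The ranges overlapped, since 5 of the 7 negative feedback cultures lay inside the paradoxical range and 1 paradoxical feedback culture lay above all negative ones. The log2 fold change was 0.40 ± 0.30 (SE), with an interval at 95% of -0.23 to 1.02, which is 0.852-fold to 2.03-fold. The adjusted p was 0.574 by edgeR's quasi-likelihood test with Benjamini-Hochberg adjustment over all tested targets, of which 0.27% were called in either direction. By exact two-sided permutation of the log2 CPM values, p was 0.223, or 0.349 after Benjamini-Hochberg adjustment over 6 such tests. Since the interval reaches 2.03-fold, the conditions cannot be said to share a level.

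This comparison rested on which negative feedback cultures entered. With negative feedback cultures 3 to 7 left out the log2 value was 1.44, with an edgeR adjusted p of 0.0547, and with cultures 1 and 2 left out it was 0.13, with an edgeR adjusted p of 0.780. Leaving out single libraries gave 0.21 to 0.57, with the lowest value when paradoxical feedback culture 1 was left out. Over the 28 alternative fits the value was above 0 in all 28 and called in 0, with adjusted p from 0.0547 to 0.837. The fit of all libraries had an unadjusted p of 0.200.

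**Figure D2:**
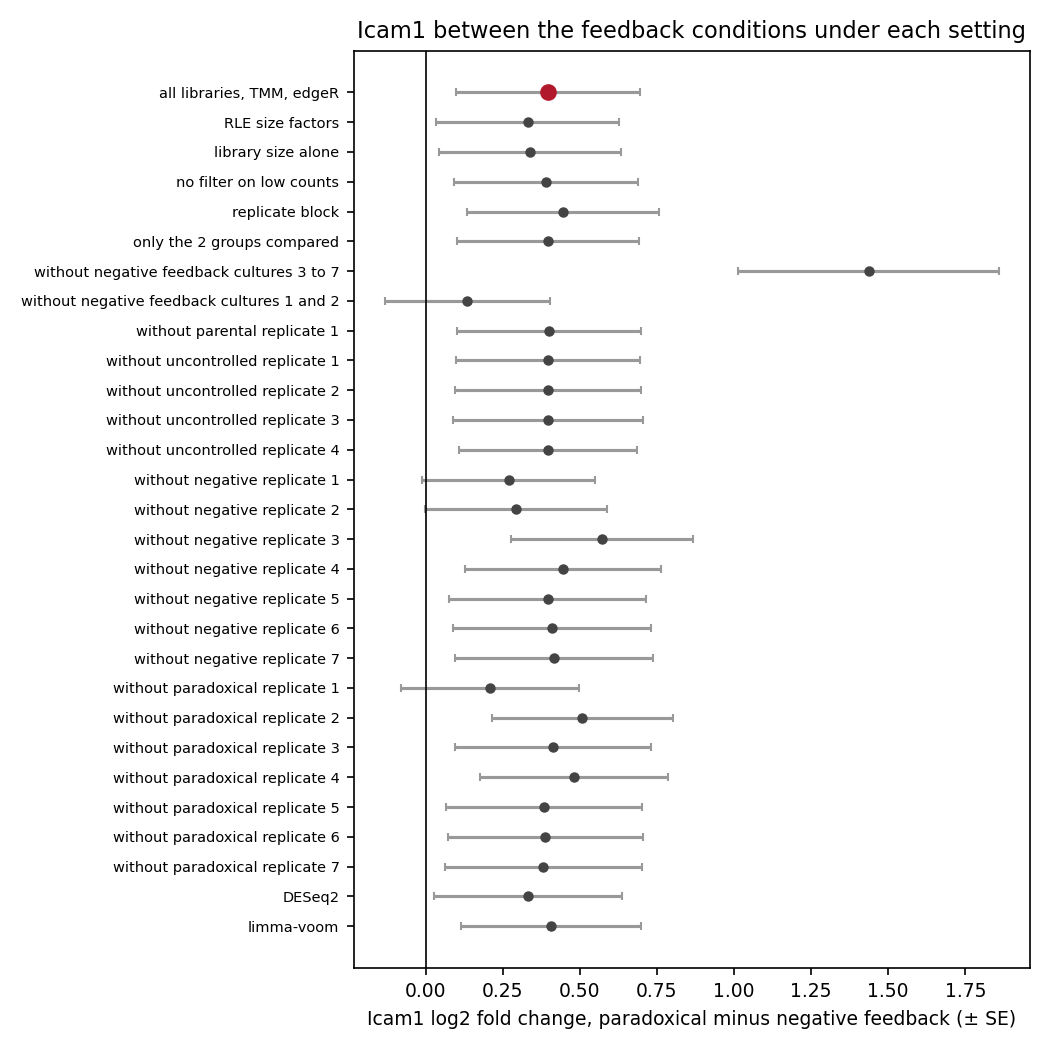
Log2 fold change of Icam1 for paradoxical minus negative feedback (x axis, ± SE of each fit) under each setting named on the y axis, with the fit of all 19 libraries in red at the top. All points lie right of 0, and the fit without negative feedback cultures 3 to 7 stands apart at 1.44.

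The differences between conditions depended in part on the scale of the values. In TPM, Icam1 averaged 169 ± 64.8 under paradoxical feedback and 161 ± 80.2 under negative feedback (SD, n = 7 each), and 49.4 ± 19.5 TPM in uncontrolled cultures (SD, n = 4), with 85.9 TPM in the parental library. The median TPM of paradoxical feedback cultures (154) was below that of negative feedback cultures (172), whereas in CPM the order was the reverse. The exact two-sided permutation p for the TPM difference was 0.822 (0.822 after adjustment over the 6 tests). In log2(TPM + 0.1), the difference was 1.77 for paradoxical feedback minus uncontrolled, 1.57 for negative feedback minus uncontrolled and 0.20 between the feedback conditions.

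Targets of similar length give another yardstick for a gene of 2781 nt. Measured against the median of 3351 tested targets of 2503 to 3059 nt in the same library, Icam1 was higher than in uncontrolled cultures by 1.71 under paradoxical and by 1.25 under negative feedback, in mean log2 units. Measured against the median of the 284 tested named protein-coding targets, it was higher by 1.31 and 0.84. Targets with a gene symbol had themselves a median log2 fold change of 0.55 for paradoxical feedback minus uncontrolled and 0.43 for negative feedback minus uncontrolled, against 0.02 and 0.04 over all tested targets. Against named targets the exact permutation p between the feedback conditions was 0.0944 (0.349 adjusted). These yardsticks were added after seeing the data.

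Icam1 and the share of counts on short targets set apart some of the same cultures. The libraries with under 8% on short targets were negative feedback cultures 3 to 7, at 297.7 to 504.4 CPM of Icam1. Negative feedback cultures 1 and 2, with 14.1 and 13.3%, had 132.8 and 159.8 CPM. Paradoxical feedback culture 5, with 12.4% on short targets, had 421.6 CPM, and culture 7, with 8.50%, had 418.1 CPM. That likeness depended on the scale. With library size alone as the scaling, cultures 5 and 7 had 374.4 and 439.2 CPM, and in TPM they had 150.9 and 212.6. Uncontrolled culture 1 had 12.2% and 82.0 CPM. The part of library composition in the Icam1 level was not tested.

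**Figure D3:**
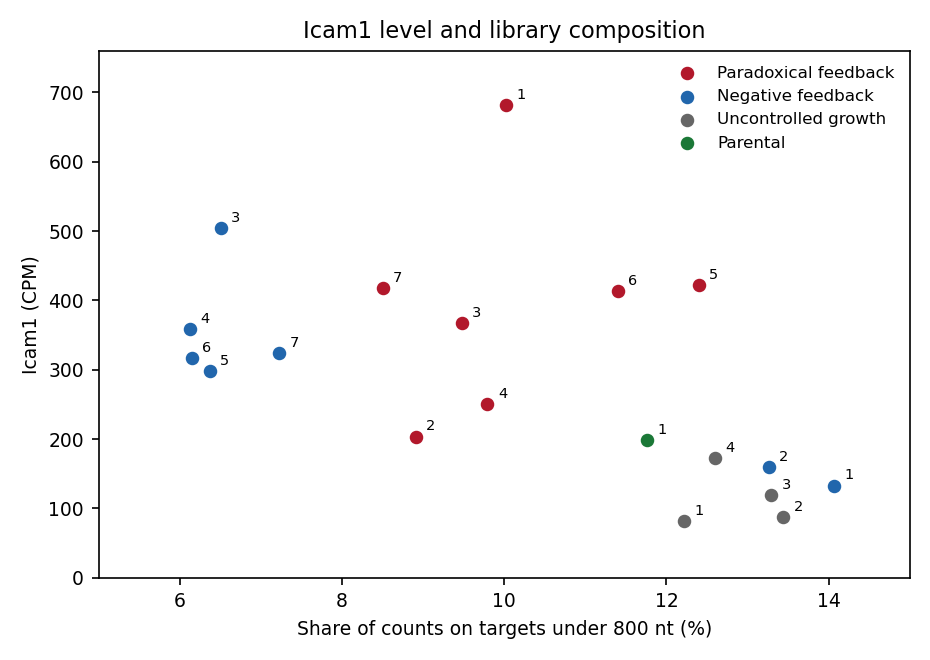
Icam1 level in CPM (y axis) against the share of counts on targets under 800 nt in % (x axis) for the 19 libraries, coloured by culture condition and numbered by culture. Negative feedback cultures 3 to 7 sit at 6.12 to 7.22%, and paradoxical feedback cultures 5 and 6 combine more than 11% on short targets with over 400 CPM of Icam1.

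The genes whose pattern was most like that of Icam1 were sought among 253 named protein-coding targets whose mean log2 CPM was 1 or more. The measure was Pearson's r of log2 CPM over 19 libraries, given as a description with no p. All values share the libraries' depth and composition, and the median over the 253 genes was already 0.46. The highest was Tuba1c at 0.93, an alpha-tubulin, followed by Pcna at 0.91, the sliding clamp of DNA polymerase, and Tuba1b at 0.90, another alpha-tubulin. Next came Cdc25b, a phosphatase that activates mitotic kinases, Dph2, an enzyme of diphthamide synthesis, and Pex19, a carrier of peroxisomal membrane proteins, each at 0.90. The tubulins had reads shared with other transcripts. These genes are named only for their likeness over these libraries.

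Their levels followed the same grouping of cultures. Tuba1c had a lowest, median and highest level of 294.9, 583.1 and 665.4 CPM under paradoxical feedback, 126.9, 459.7 and 682.9 CPM under negative feedback, and 105.4, 122.6 and 148.0 CPM in the uncontrolled cultures. Pcna had 151.5, 276.2 and 360.2 CPM under paradoxical feedback, 75.6, 205.3 and 264.0 CPM under negative feedback, and 62.4, 88.9 and 114.9 CPM in the uncontrolled cultures. For both genes all paradoxical feedback cultures lay above all uncontrolled ones. Both were picked for their likeness to Icam1, which was itself chosen as higher under feedback, so nothing is read from this separation. Dph2 was a low gene, with a median of 12.6 CPM under paradoxical feedback, 16.1 CPM under negative feedback and 3.95 CPM in the uncontrolled cultures.

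Likeness was also measured within groups, where the difference between conditions plays no part. After subtraction of each group's mean, over the 18 long-term cultures, r was highest for Top1 at 0.86, the type I topoisomerase. Pcna and Tuba1c both followed at 0.83, and Tubb4b, a beta-tubulin with shared reads, was at 0.82. The median over the 253 genes was 0.38. Negative feedback cultures 1 and 2 lay apart from the rest of their group for whole libraries as well as for Icam1, and the part of that separation in these values was not tested.

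The genes least like Icam1 ran the other way. Znf330, a zinc finger protein, had r = -0.86. Creld2 and Hspa5, which are made in the endoplasmic reticulum stress response, both had -0.86, and Gmds, which makes GDP-fucose precursors, had -0.85. Hspa5, the chaperone also called BiP, had a median of 1903 CPM under paradoxical feedback, 1849 CPM under negative feedback and 7778 CPM in the uncontrolled cultures. In its negative feedback group it ranged from 1768 to 11872 CPM.

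**Figure D4:**
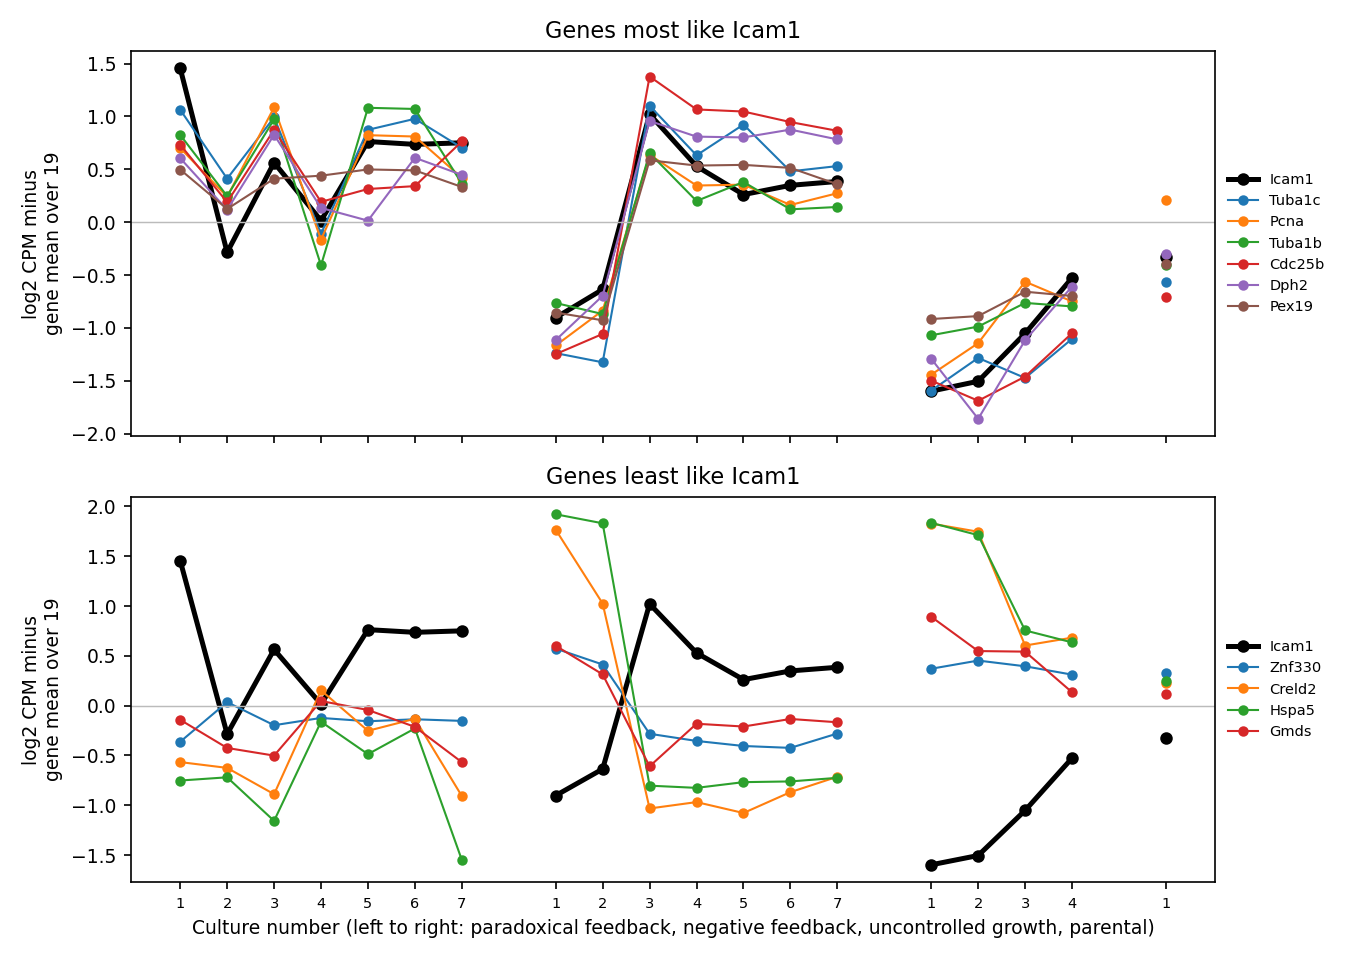
Level of Icam1 (black) with the 6 genes most like it (top) and the 4 least like it (bottom), as log2(CPM + 0.1) minus each gene's mean over 19 libraries, per culture; lines join the cultures of a group only to let each gene be followed. Negative feedback cultures 1 and 2 lie below the mean, as the uncontrolled cultures do, for all 6 like genes, and paradoxical feedback cultures 2 and 4 are the lowest of their group for Icam1.

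Genes of the pathways around Icam1 could be followed only in small part, since most predicted transcripts in the files carry no matched symbol. Of 208 symbols listed for adhesion, integrins, actin linkers, NF-kB and interferon signalling, inflammatory targets, transcription factors, shedding proteases and cell type markers, 11 were matched and 10 were tested beside Icam1. The 24 interferon and JAK-STAT genes had no match. Since the lists were chosen with earlier results of these data known, the counts that follow are a description. In paradoxical minus uncontrolled, 2 of the 10 rose and 0 fell by edgeR. In the same comparison 4.93% of all tested targets and 19.6% of those with a symbol were called higher, and 1.5% of all were called lower. In negative minus uncontrolled, 5 of 10 rose and 0 fell by edgeR, where 8.65% of all and 28.1% of those with a symbol were called higher, and 1.11% of all lower. At an unadjusted p under 0.05, edgeR also had 0 lower in both. DESeq2 called 1 of the 10 lower in the first comparison, Fos, where it called 1720 of 28555 targets lower, and 0 in the second, and limma-voom called 0 lower in either. The matched targets of Actb and Bcl2l1 were at 0 in all 4 uncontrolled cultures and were tested only because of low counts elsewhere, so no median over the 10 is given.

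Among adhesion genes, Sdc1 and Ilk rose under both conditions. Sdc1, a transmembrane proteoglycan that binds matrix and growth factors, averaged 55.7 ± 21.5 CPM under paradoxical feedback (SD, n = 7) and 70.5 ± 41.4 CPM under negative feedback (SD, n = 7), against 11.7 ± 3.35 CPM in the uncontrolled cultures (SD, n = 4). Its log2 fold changes over uncontrolled were 2.25 ± 0.58 and 2.59 ± 0.59 (edgeR adjusted p = 0.0316 and 0.0236). Ilk, the integrin-linked kinase and a gene with shared reads, averaged 71.4 ± 13.4 CPM under paradoxical and 58.0 ± 22.9 CPM under negative feedback, against 21.9 ± 3.13 CPM in the uncontrolled cultures, with log2 fold changes of 1.71 ± 0.32 and 1.40 ± 0.31 (edgeR adjusted p = 0.0122 and 0.0236). For Sdc1 the lowest paradoxical feedback culture (32.3 CPM) was above the highest uncontrolled culture (16.5 CPM), as it was for Ilk (52.8 against 24.4 CPM). Negative feedback cultures 1 and 2, at 10.8 and 11.3 CPM of Sdc1, were not above it. The number of all tested targets that separate in this way was not counted. With negative feedback cultures 3 to 7 left out, Sdc1 had a log2 fold change of -0.08 for negative feedback, and Ilk 0.18.

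Adam17 and Furin, proteases that act on surface proteins, rose under negative feedback. Adam17, the metalloprotease that releases tumour necrosis factor and can cleave human ICAM1, was at 35.5 ± 7.45 CPM under paradoxical feedback (SD, n = 7) and 58.8 ± 28.8 CPM under negative feedback (SD, n = 7), against 18.5 ± 2.08 CPM in the uncontrolled cultures (SD, n = 4). Its log2 fold change was 0.94 ± 0.39 under paradoxical feedback (edgeR adjusted p = 0.138) and 1.67 ± 0.40 under negative feedback (0.0241). Furin, the proprotein convertase that matures Adam17 and a gene with shared reads, had log2 fold changes of 1.83 ± 0.55 (0.0564) and 2.41 ± 0.57 (0.0241). Mmp14, a membrane-bound matrix metalloprotease, had 1.06 ± 0.45 (0.147) and 1.39 ± 0.45 (0.0591) and was called in neither. Within the negative feedback group, the rises of Adam17 and Furin lay in cultures 3 to 7. Adam17 had 65.8 to 82.5 CPM there and 18.2 and 16.6 CPM in cultures 1 and 2. Though not called under paradoxical feedback, both genes were higher in its lowest culture than in the highest uncontrolled culture. The values were 25.3 against 20.9 CPM for Adam17 and 12.7 against 8.79 CPM for Furin. For Mmp14 the groups overlapped (32.1 against 38.2 CPM). The number of all tested targets that separate in this way was not counted.

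**Figure D5:**
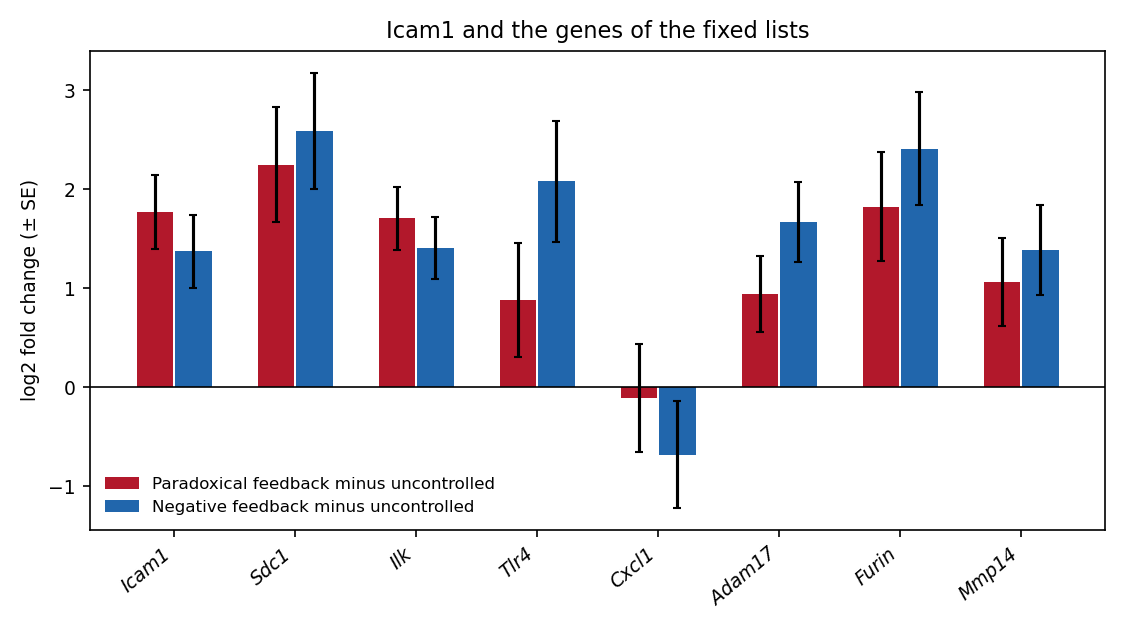
Log2 fold change (± SE of the fit) over uncontrolled cultures for Icam1 and the 7 matched genes whose mean log2 CPM was 1 or more, with paradoxical feedback in red and negative feedback in blue. Icam1, Sdc1, Ilk, Furin and Mmp14 are above 1 in both conditions, while Cxcl1 is at -0.11 and -0.68.

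Of the receptors and chemokines on the fixed lists of inflammatory signalling, Tlr4 and Cxcl1 were matched. Tlr4, the receptor for bacterial lipopolysaccharide that acts through NF-kB, averaged 14.3 ± 8.61 CPM under paradoxical feedback (SD, n = 7) and 32.8 ± 17.2 CPM under negative feedback (SD, n = 7), against 7.75 ± 2.31 CPM in the uncontrolled cultures (SD, n = 4), with shared reads. It rose under negative feedback, by 2.08 ± 0.61 on the log2 scale (edgeR adjusted p = 0.0420), and had 0.88 ± 0.58 under paradoxical feedback (0.354). The rise of Tlr4 lay in negative feedback cultures 3 to 7, at 39.7 to 44.8 CPM, against 4.28 and 11.6 CPM in cultures 1 and 2. With cultures 3 to 7 left out, its log2 fold change for negative feedback was 0.04. Cxcl1, a chemokine that is also an NF-kB target, was not called in either comparison. It had a lowest, median and highest level of 24.6, 32.0 and 107.9 CPM under paradoxical feedback and 15.9, 27.1 and 57.9 CPM under negative feedback, against 9.05, 42.9 and 99.9 CPM in the uncontrolled cultures. Its log2 fold changes were -0.11 ± 0.55 and -0.68 ± 0.54 (edgeR adjusted p = 0.945 and 0.395), and their sign was not stable across settings.

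Fos, a subunit of the AP-1 transcription factor, was low, with medians of 0.401, 0.557 and 2.23 CPM under paradoxical feedback, negative feedback and uncontrolled growth. It had 1.42 to 2.54 CPM in the uncontrolled cultures and reached 11.6 CPM in paradoxical feedback culture 4. Its log2 fold changes over uncontrolled were -0.05 ± 1.12 (SE) under paradoxical and -1.02 ± 1.10 (SE) under negative feedback, and edgeR called neither. The matched targets of Actb and Bcl2l1, both with shared reads, reached at most 1.28 and 2.03 CPM in any library and do not give the level of their genes.

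Between the feedback conditions, edgeR called 0 of the 10 genes, with 3 at an unadjusted p under 0.05, where 5033 of all 28555 tested targets were. The 3 were Tlr4, Adam17 and Bcl2l1, each lower under paradoxical feedback, and Bcl2l1 was tested only because of low counts in negative feedback cultures 3 to 7. DESeq2 called 0 of the 10 and limma-voom called 1, the Actb target, as higher. That target was tested only because of low counts that lay mostly in the paradoxical feedback cultures, so nothing is read from the call. Across all tested targets edgeR called 77, DESeq2 1777 and limma-voom 297. In the comparisons with uncontrolled cultures, the calls of Sdc1, Ilk, Adam17, Furin and Tlr4 under negative feedback were kept in 20, 21, 20, 20 and 13 of 28 alternative fits. Those of Sdc1 and Ilk under paradoxical feedback were kept in 21 and 25 of 28. Leaving out any 1 of the 4 uncontrolled cultures ended the calls under negative feedback (edgeR adjusted p from 0.0525 to 0.114), and that of Tlr4 also ended without any 1 of negative feedback cultures 3 to 7 or paradoxical feedback culture 7 (0.05003 to 0.0748). Under paradoxical feedback the call of Sdc1 ended without any 1 uncontrolled culture or paradoxical feedback culture 6 (0.0508 to 0.101), and that of Ilk without uncontrolled culture 1 or 2 (0.0502 and 0.0542). With the replicate number as a block, all 5 calls under negative feedback ended (edgeR adjusted p from 0.205 to 0.211), as did those of Sdc1 and Ilk under paradoxical feedback (0.184 and 0.123). In the fit of the 2 groups alone, the 5 calls under negative feedback also ended (edgeR adjusted p = 0.0798 for each), while Adam17 and Furin were called higher under paradoxical feedback (0.00554 and 0.00162). Limma-voom ended the calls of Sdc1, Adam17, Furin and Tlr4 under negative feedback (adjusted p from 0.0588 to 0.123) and that of Sdc1 under paradoxical feedback (0.136). Library size alone as the scaling ended the call of Tlr4 under negative feedback (edgeR adjusted p = 0.0566), and leaving out negative feedback cultures 3 to 7 ended all 5. Both comparisons with uncontrolled growth share the same 4 uncontrolled cultures.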

How the data were processed

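Polyadenylated RNA was sequenced from 19 libraries. Trim Galore and kallisto are listed, without versions, in the submitters' processing notes; genome build and annotation: not given in the sources used here. Per the file headers, the authors deposited for each of 46718 transcript targets a length, an estimated count, which need not be whole, and a TPM value scaled by effective length. Targets were matched by RefSeq accession to a gene table of assembly CriGri-PICRH-1.0, used for names only; 528 matched, 334 of them protein coding.

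Estimated counts were rounded, filtered with filterByExpr to 28555 targets (285 with a symbol), scaled by TMM and tested in R 4.3.3 with edgeR 4.0.16 (quasi-likelihood, 1 coefficient per group, all 19 libraries). Adjusted p-values are Benjamini-Hochberg values over all tested targets, called under 0.05. CPM uses TMM-scaled library sizes, and log2 CPM a prior count of 2. The fit was tested on simulated counts that lacked the split seen among the negative feedback cultures, so that test does not cover such a split. DESeq2 1.42.0, limma-voom (limma 3.58.1), other scalings, no filter, the 2 groups alone, a replicate block and left-out libraries were alternatives. A target was called whole within 1e-06.

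Icam1, the gene lists and the tests were chosen with earlier results of these data known. Named genes are Icam1, the 6 most and 4 least like it over 19 libraries, the 4 most like it within groups, and the matched list members; 1 listed gene is not reported here and is left out of the list counts. The replicate numbers are not known to pair the cultures, so the fit has no block.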

Additional observations from a re-analysis of the deposited data

Results flagged for a closer look

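In groups of 4 to 10 samples, a library was looked at again when its gap to the nearest other, divided by the range of the group, passed Dixon's critical value at 95%. Chance flags about 1 in 20 groups, and 69 groups (23 genes in 3 conditions) gave 3 such values. Icam1 gave none, although paradoxical feedback culture 1, at 681.6 CPM, had a ratio of 0.544 against a critical value of 0.568. Cxcl1 was far from the others in the same paradoxical feedback culture 1, at 107.9 CPM. Fos was far from the others in paradoxical feedback culture 4, at 11.6 CPM. The Actb target was at 1.10 CPM in negative feedback culture 7 and at 0 in the other 6.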

How the results depend on the processing

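For Icam1, the log2 fold change between the feedback conditions kept its sign and missed the threshold under all 28 alternative fits, and leaving out single libraries gave 0.21 to 0.57. Its value for negative feedback minus uncontrolled moved by more than the spread between replicates only without negative feedback cultures 3 to 7, where it was 0.35. It ran from 0.84 to 1.63 under the other alternatives, and that for paradoxical feedback minus uncontrolled from 1.31 to 2.03. With the replicate number as a replicate block, the values were 0.45 between the feedback conditions (edgeR adjusted p = 0.604), 1.24 for negative and 1.69 for paradoxical feedback over uncontrolled. The numbers are not known to pair the cultures. Correlations of deviations between same-numbered cultures were 0.0152 to 0.0739 and -0.0226 to 0.0316 against uncontrolled cultures and -0.156 to 0.107 between the feedback conditions, and not every culture correlated best with its own number (2 of 4, 3 of 4 and 3 of 7). With the block the counts of called targets fell to 4, 3 and 0 for negative minus uncontrolled, paradoxical minus uncontrolled and paradoxical minus negative.

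Counts of called targets depended strongly on the libraries. In the order just given they were 2787, 1835 and 77 with all libraries. In the fit of the 2 groups alone they were 10, 4956 and 0, with 2920 of the last comparison at an unadjusted p under 0.05. Without negative feedback cultures 3 to 7 they were 13, 4926 and 2454, and without cultures 1 and 2 they were 11460, 5675 and 5937. DESeq2 gave 6361, 4730 and 1777, and limma-voom gave 5039, 2589 and 297. The last comparison had 11, 42 and 2 calls with RLE size factors, library size alone and no filter. Leaving out single libraries gave 7 to 6938, 127 to 3204 and 0 to 989; the cause was not tested. Without negative feedback cultures 3 to 7 the signs of Sdc1, Adam17, Furin and Cxcl1 for negative feedback turned, to -0.0804, -0.0806, -0.179 and 0.0307. For paradoxical feedback the sign of Cxcl1 turned with the block (0.225), with limma-voom (0.298) and without uncontrolled culture 2 (0.0637) or 4 (0.517) or paradoxical feedback culture 3 (0.0007), over a range of -0.48 to 0.52. The calls under negative feedback were lost without any 1 of the uncontrolled cultures. Of the 6 genes most like Icam1, 3 stayed among the 6 with Spearman's rank correlation and 6 without the parental library.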

Other observations

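Paradoxical feedback cultures 2 and 4, the lowest of their group in Icam1 at 203.8 and 251.0 CPM, were the highest in 3 other surface genes. Sdc1 was at 99.0 and 63.3 CPM there, against 32.3 to 54.8 CPM in the other 5 cultures. Mmp14 was at 117.5 and 98.9 CPM, against 32.1 to 55.0 CPM. Tlr4 was at 24.3 and 24.7 CPM, against 5.09 to 20.9 CPM. Tuba1c was lowest in the same cultures, at 423.3 and 294.9 CPM, against 518.4 to 665.4 CPM. These genes and cultures were picked after their values were seen, and no test was made.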
